A study of Mus musculus with 6 samples.

Results

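The genes described here are 32 mouse genes that hepatocytes, the main cells of the liver, use to make plasma proteins and to run liver metabolism. They were chosen by their known function in hepatocytes, with earlier results of these libraries known. Their differences between the genotypes are therefore given as a description without p-values, and calls of the limma fit among them as counts only. All 32 were found among 21883 protein-coding RefSeq genes, 31 of them by symbol and the transferrin gene Tf through a synonym. The territory of a gene was its span on the mm10 assembly plus 10 kb on each side. Some of the genes are neighbours and share a territory, which leaves 26 loci with 1199.8 kb in all. The assay was ATAC-seq, a map of accessible DNA made with the cutting enzyme Tn5. The cells were mature insulin-producing β-cells of mice given tamoxifen, sorted for the fluorescent protein Tomato from dispersed islets. The Chd4KO group, in which Chd4 was knocked out, and the control group had 3 libraries each, and tamoxifen was given to both. The sources used here do not give the age and strain of the mice or the driver of the knockout. Nor do the labels tell separate animals from repeated samples within a group, so the spread between libraries may be technical.

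Hepatocytes keep these genes active through a small set of transcription factors, among them the HNF1, HNF4, FOXA and C/EBP families, which bind together at promoters and distal enhancers. β-cells arise from the same embryonic endoderm as hepatocytes and also contain several of these factors, but mature β-cells are not known as a source of most plasma proteins. Chd4 is the ATPase of NuRD, a chromatin remodelling complex that also carries histone deacetylases and is best known for keeping genes of other lineages silent.

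The data are narrow peak lists, 1 per library. The Chd4KO lists held 119088 to 124125 peaks over 65.8 to 69.1 Mb and the control lists 100109 to 110693 peaks over 58.0 to 63.8 Mb. No read counts come with the peaks, and the depth in reads is unknown. The measure used below is the covered length, the number of bases under peaks in a territory, scaled so that each library had the mean total. All 10 β-cell marker genes examined had covered bases in every library, between 1583 and 7533 bp per gene.

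Most promoter windows of the hepatocyte genes had no peak in either genotype. RefSeq promoter windows, from 250 bases before to 50 bases after an annotated start, were at hand for 26 of the 32 genes on GRCm38.p6, the assembly that mm10 names. A peak lay over the window in all 3 Chd4KO and all 3 control libraries at Ass1 and F7, which is 7.69% of the 26 genes. Among all 17491 protein-coding genes with a window this share was 60.0%. At 22 of the 26 genes, or 84.6%, no library had a peak over the window, against 35.2% of all genes. The window of F2 had a peak in 0 Chd4KO libraries and 1 control library, and that of Itih1 in 1 Chd4KO library and 3 control libraries. The windows are narrow, and regions with peaks in all 6 libraries were also centred shortly before the start at F2 (-518 bp), Apoa2 (-563 bp) and Itih1 (-706 bp). Of the genes without a window, Arg1 and Tf had such a region over an end of the span. At no hepatocyte gene was the window open in every library of one genotype and closed in the other.

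The windows below are those with a peak in any library, where both genotypes can be compared at the promoter, and that of the albumin gene Alb, closed in all 6 libraries. They are given 5′ to 3′ on the strand of the gene, with matches to the liver factor motifs and the TATA box in capitals. Ass1 lies at chr2:31470020-31470319 (+ strand), F7 at chr8:13025784-13026083 (+ strand), Itih1 at chr14:30943240-30943539 (- strand), F2 at chr2:91636408-91636707 (- strand) and Alb at chr5:90460620-90460919 (+ strand).
Ass1: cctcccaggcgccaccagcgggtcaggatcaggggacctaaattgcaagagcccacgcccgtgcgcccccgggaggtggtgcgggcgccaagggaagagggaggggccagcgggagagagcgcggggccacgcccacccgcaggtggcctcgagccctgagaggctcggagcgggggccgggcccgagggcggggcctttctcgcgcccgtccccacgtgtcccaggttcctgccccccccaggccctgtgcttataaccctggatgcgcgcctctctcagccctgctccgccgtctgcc
F7: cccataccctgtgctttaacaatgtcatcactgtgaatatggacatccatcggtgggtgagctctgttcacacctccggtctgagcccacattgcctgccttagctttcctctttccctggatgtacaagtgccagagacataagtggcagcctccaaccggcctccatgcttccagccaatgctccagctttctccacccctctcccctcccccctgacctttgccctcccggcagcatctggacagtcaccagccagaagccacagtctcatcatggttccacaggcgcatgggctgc
Itih1: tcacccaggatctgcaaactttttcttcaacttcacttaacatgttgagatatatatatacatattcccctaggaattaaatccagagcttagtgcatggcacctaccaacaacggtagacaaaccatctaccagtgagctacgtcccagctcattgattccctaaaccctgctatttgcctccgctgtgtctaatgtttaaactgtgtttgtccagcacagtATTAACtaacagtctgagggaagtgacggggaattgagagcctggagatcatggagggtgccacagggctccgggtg
F2: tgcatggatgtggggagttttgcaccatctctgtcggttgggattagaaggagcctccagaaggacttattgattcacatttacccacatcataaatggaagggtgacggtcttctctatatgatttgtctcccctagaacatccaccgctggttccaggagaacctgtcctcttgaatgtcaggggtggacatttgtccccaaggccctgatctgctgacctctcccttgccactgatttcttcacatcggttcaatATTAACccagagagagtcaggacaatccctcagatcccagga
Alb: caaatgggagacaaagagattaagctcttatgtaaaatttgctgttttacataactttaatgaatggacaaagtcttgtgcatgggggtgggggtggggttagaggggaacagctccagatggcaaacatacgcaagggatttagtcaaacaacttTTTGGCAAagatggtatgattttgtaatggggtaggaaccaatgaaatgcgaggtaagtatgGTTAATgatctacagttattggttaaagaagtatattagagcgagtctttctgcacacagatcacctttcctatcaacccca

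Neither window that was open in all 6 libraries held any of the motifs searched, while closed windows often did. Both strands were searched for the HNF1 half-site GTTAAT, the HNF4 site CAAAGTCCA, the C/EBP site TTNNGCAA, the FOXA site TGTTTAC and the TATA box TATAAA, and no match overlapped another. The HNF1 half-site was found in 8 of the 27 windows of the hepatocyte genes (29.6%), among them Alb, Afp, Fga, Fgb and G6pc, and in 6.25% of all 21262 windows. The C/EBP site was found in 10 windows (37.0%) and in 10.2% of all windows. FOXA sites stood at Apoa2 and Apoh (7.41%, against 3.01% of all windows), TATA boxes in 7 windows (25.9%, against 12.6%), and the HNF4 site in 0 windows (against 0.45%). Counted from the annotated start, the C/EBP match of Alb began at -94 and its HNF1 half-site at -32. The half-site of Itih1 began at -27 and that of F2 at 9, both on the opposite strand. The TATAAA matches lay at varied places. They began at -29 at G6pc, at -28 at Hal on the opposite strand and at -60 at Apob. Those of Afp, Itih3, Apoa2 and Tdo2 began at -7, 4, -212 and -229. A match describes the letters of the window and not a bound site. Only the letters given above were searched, so a window without a match can still hold a variant of a site. Among windows open in all 6 libraries, the comparison rests on Ass1 and F7 alone.

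The windows were also poor in CpG dinucleotides, with a median of 4 per window, against 13 over all windows. Under 5 CpG stood in 14 of the 27 windows (51.9%), against 28.4% of all windows. Across all genes, 7.16% of the windows with under 5 CpG and 78.1% of the others had a peak in all 6 libraries. Among the hepatocyte genes, 0 of 14 windows with under 5 CpG and 2 of 13 with more had one. Ass1 held 27 CpG and F7 5. This limit was chosen after the data had been seen, and the part of CpG content in the peak calls was not tested.

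Over all 26 loci, peaks covered about the same share of the territories in both genotypes after scaling, and more in Chd4KO libraries without it. Covered length summed to 40712, 42663 and 40893 bp in Chd4KO libraries 1 to 3, against 40990, 41665 and 40218 bp in control libraries 1 to 3. This was 3.45% of the territories in Chd4KO and 3.41% in control cells, a ratio of 1.01, and the groups overlapped. Without scaling the sums were 43090, 46286 and 42235 bp in Chd4KO libraries 1 to 3, against 37307, 41720 and 36694 bp in control libraries 1 to 3, a ratio of 1.14 with no overlap. In bulk cells, a site open in fewer cells and a site less open in each cell cannot be told apart. Per gene, the median was 3 merged regions against 4 over all genes, and the median covered length was 1217 bp against 2094 bp. These medians were not matched for the length of the territories. The fetuin gene Ahsg and the fibrinogen gene Fga had no covered base in any library. Together with Apoh, F10 and Itih3 they fell short of the filter of 300 bp mean covered length, which left 27 genes.

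Of these 27 genes, 8 had a higher covered length in every Chd4KO library than in any control library, 8 had a lower one, and in 11 the groups overlapped. The 8 genes are 29.6% in each direction, beside a background of 13.1% higher and 32.7% lower among 17707 protein-coding genes past the same filter. Apoa1 and Apoc3, both among the higher genes, held only a single region that they share, so this region is counted for each. Differences are given as log2(covered length + 300 bp), Chd4KO minus control. Their median was -0.0005 over the 27 genes and -0.09 over all genes tested. The scaling moved the median of all genes by 0.15. Without it, 11 hepatocyte genes were higher and 2 lower without overlap (28.5% and 9.68% of all genes), and the medians were 0.14 over the 27 genes and 0.06 over all genes. The limma fit called 4 of the 27 higher and 2 lower, where it called 7.56% of all genes higher and 14.5% lower. Without scaling it called 6 higher and 0 lower (14.6% and 2.88% of all genes). Nothing is read from these counts, since the genes were chosen with earlier results of this contrast known. They also rest on single libraries, because 1 higher call was left without Chd4KO library 1, control library 2 or control library 3. Lower calls numbered 0 without Chd4KO library 1 and 1 without control library 1 or 3.

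**Figure D1:**
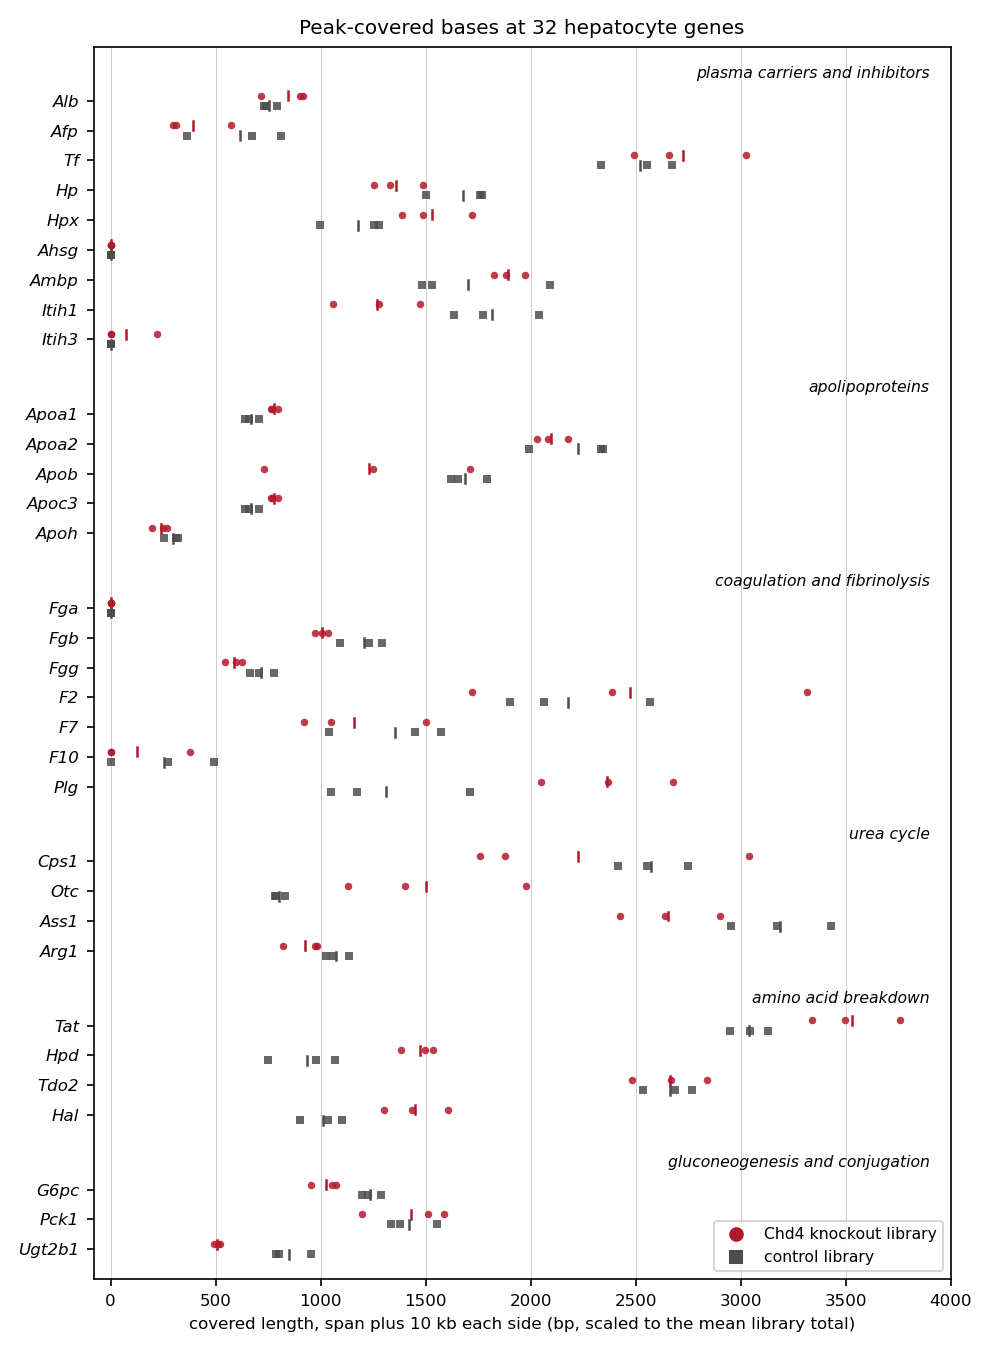
Scaled covered length (x axis, bp) of each of the 32 hepatocyte genes (y axis, by role) in the 3 Chd4KO libraries (red circles) and the 3 control libraries (grey squares), with ticks at the group means. Every red point lies to the right of every grey one at Apoa1, Apoc3, Otc, Hpd, Tat, Hal, Plg and Hpx. The reverse holds at Arg1, Ass1, Fgb, Fgg, Hp, Itih1, Ugt2b1 and G6pc.

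**Figure D2:**
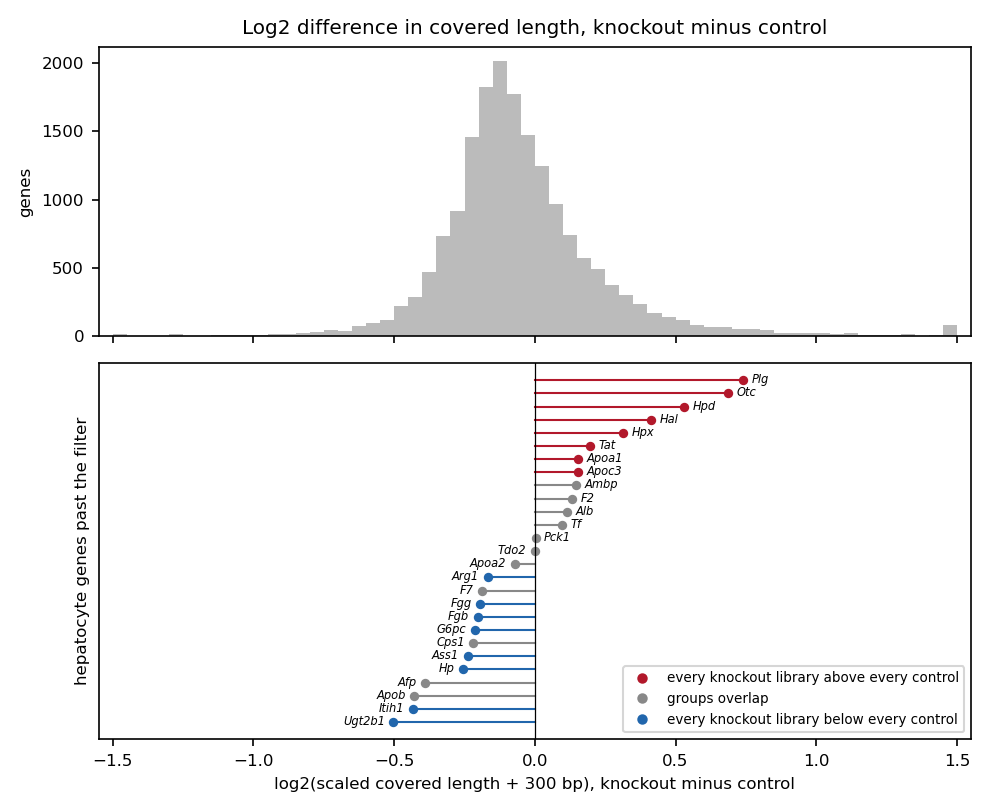
Top, log2(scaled covered length + 300 bp), Chd4KO minus control, of all 17707 genes tested, in bins of genes (y axis), where values beyond 1.5 in size stand in the outermost bars. Bottom, the same difference (x axis) for the 27 hepatocyte genes past the filter, from 0.74 at Plg to -0.50 at Ugt2b1, coloured by whether the groups overlap.

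Merged regions of the hepatocyte genes were gained at 4 genes and lost at none. Peaks of the 6 libraries sharing at least 1 bp were merged, and a region is called gained when all 3 Chd4KO libraries and no control library had a peak there, and lost in the reverse case. Of 116 regions in the territories, 7 were gained (6.03%, beside 10.3% of all 156745 regions), 0 were lost (beside 2.62%), 60 were called in all 6 libraries and 49 had other patterns. The gained regions lay at Plg with 3, Otc with 2, and Hpd and Tat with 1 each. These are 12.5% of the 32 genes, where 33.0% of all protein-coding genes had a gained region and 13.1% a lost one. None of the 7 lay over a promoter window at hand. The pattern changed when each list was cut to its 50000 strongest peaks. Then 5 regions were gained, at Plg, Tdo2, Hal, F2 and Hpx, and 4 were lost, at Cps1, Ass1, Hal and Plg. Of the 7 regions above, only chr17:12382315-12383141 at Plg was among those gained.

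**Figure D3:**
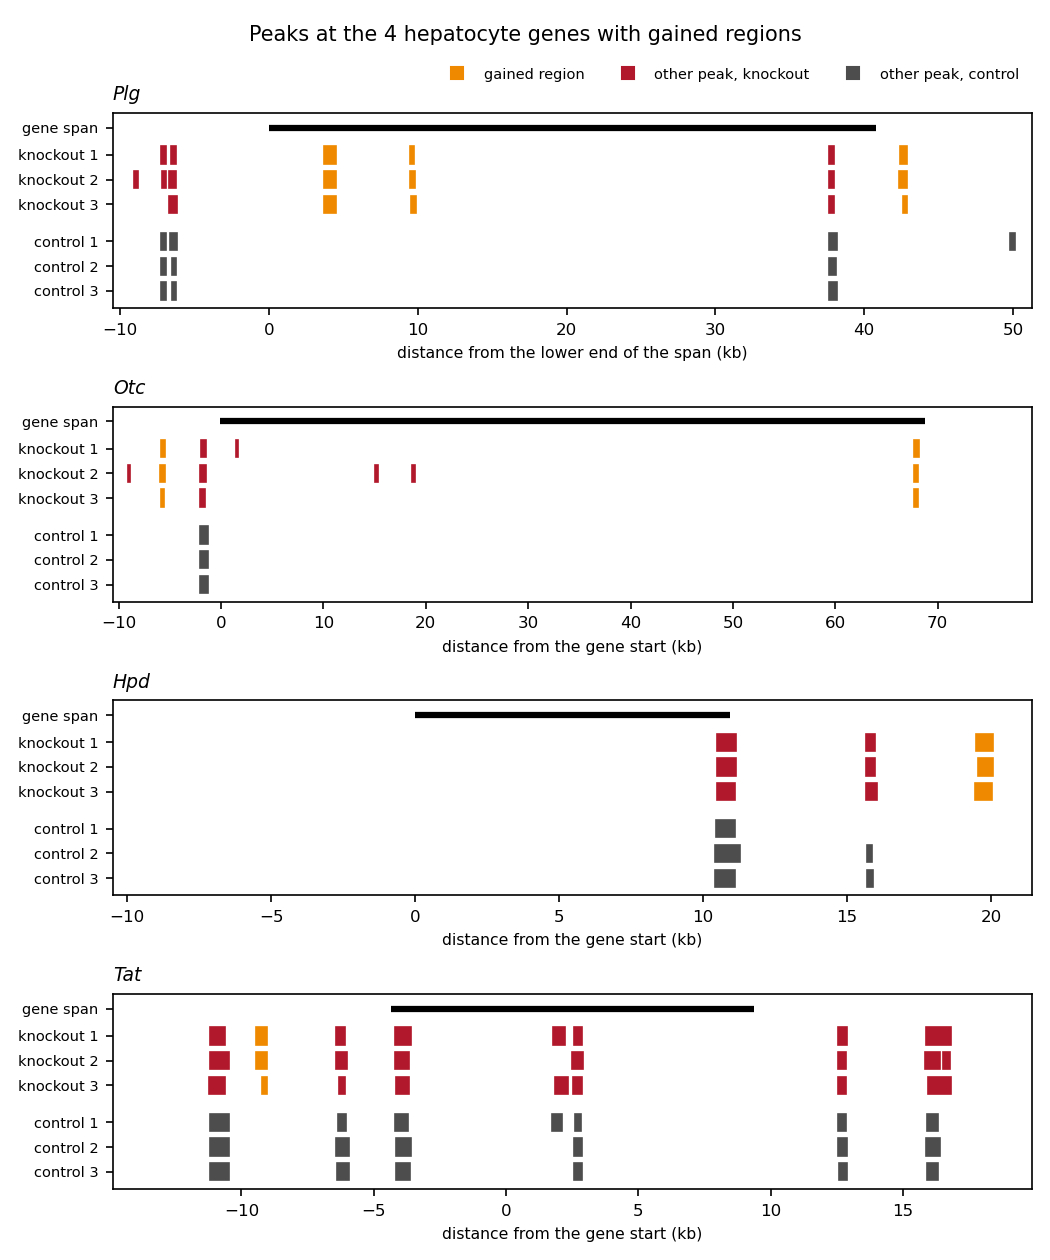
Peaks of each library (rows, Chd4KO above control) along the territories of Plg, Otc, Hpd and Tat (x axis, kb from the gene start, or from the lower end of the span for Plg). Orange marks peaks in gained regions, red and grey other peaks, and the black bar the gene span. The widest orange block lies inside Plg.

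Among genes of coagulation and fibrinolysis, Plg stood apart by its gained regions. Plg encodes plasminogen, the precursor of plasmin, which dissolves fibrin clots. Its covered length was 2369, 2679 and 2050 bp in Chd4KO libraries 1 to 3, against 1714, 1049 and 1175 bp in control libraries 1 to 3. Every Chd4KO library lay above every control library, by 0.74 ± 0.15 (SE) on the log2 scale, and by 0.46 when each list was cut to its 50000 strongest peaks. With 2 kb on each side of the gene the difference was 1.23. The widest gained region lay inside the gene at chr17:12382315-12383141, with peaks of 827, 772 and 754 bp. The authors' fold enrichment there was 31.4, 31.2 and 28.6, and their −log10 q of 424, 493 and 450 ranked 98th, 68th and 67th among the 16193 gained regions within the 3 Chd4KO lists. It was thus among the strongest of all gained regions, and it was also gained with the 50000 strongest peaks.

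The other gained regions at Plg were weak. One lay inside the gene (chr17:12388101-12388451), with a fold of 3.39 to 5.16, and one 1590 bp outside the span, within Slc22a3 (chr17:12420974-12421514), with a fold of 3.89 to 4.86. A region inside Plg that was called in all 6 libraries (chr17:12416263-12416746) went the other way, at 271 ± 11 bp in Chd4KO and 501 ± 45 bp in control libraries (SD, n = 3 each). With the 50000 strongest peaks, a region beyond the lower end of the span (chr17:12371919-12372392) counted as lost. The locus therefore held both gained and narrowed regions.

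The fibrinogen genes, whose products form the clot itself, were covered slightly less in Chd4KO libraries or not at all. Fgb had 1007, 975 and 1034 bp in Chd4KO libraries 1 to 3, against 1091, 1232 and 1292 bp in control libraries. Its one region called in all 6 libraries lay at the start of the neighbour Plrg1 and not at Fgb itself. Fgg had 596, 546 and 625 bp in Chd4KO libraries, against 780, 663 and 708 bp in control libraries, in regions 5158 and 8278 bp from its span. The log2 differences were -0.20 at Fgb and -0.19 at Fgg. Without scaling they were -0.07 and -0.08, with overlap at Fgb, and with the 50000 strongest peaks Fgb had 0.20 and Fgg -0.999. The clotting factor genes F2 (prothrombin), F7 and F10 overlapped between the groups. F2, with 9 regions, ranged from 1720 to 3314 bp in Chd4KO and from 1903 to 2567 bp in control libraries.

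Among urea cycle genes, which turn ammonia into urea, Otc was covered more in Chd4KO libraries, while Ass1 and Arg1 were covered less. Otc, the ornithine transcarbamylase gene on the X chromosome, had 1402, 1976 and 1129 bp in Chd4KO libraries 1 to 3, against 786, 784 and 830 bp in control libraries 1 to 3. The control libraries were close together, and each Chd4KO library lay above them, by 0.69 ± 0.16 (SE) on the log2 scale. The gained regions were centred at -5734 bp from the start (chrX:10246350-10246793, authors' fold 5.22, 6.04 and 6.91) and at the far end of the gene (chrX:10320004-10320437, fold 5.96, 8.25 and 6.66). Their peaks were weak, between the percentiles 22.2 and 41.0 of −log10 q within their lists. The region at -1685 bp from the start (chrX:10250228-10251012), the single one called in all 6 libraries, was narrower at 459 ± 37 bp in Chd4KO and 800 ± 26 bp in control libraries. With the 50000 strongest peaks the difference at Otc was -0.61, in the opposite direction. It was 0.31 with 2 kb and 0.070 with 50 kb on each side.

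Ass1, the argininosuccinate synthase gene, had the most regions of the 32 genes, 10 in all. It had 2426, 2902 and 2641 bp in Chd4KO libraries 1 to 3, against 2956, 3431 and 3174 bp in control libraries 1 to 3. Each Chd4KO library lay below each control library, with a log2 difference of -0.24, but without scaling the groups overlapped and the difference was -0.08. It was -0.11 with 50 kb on each side and -0.41 with the 50000 strongest peaks. At its promoter region (chr2:31469805-31470628), printed in part above, scaled widths were 772 ± 16 bp in Chd4KO and 840 ± 45 bp in control libraries. Without scaling, the order of the groups turned there, with 809 to 824 bp in Chd4KO and 773 to 802 bp in control libraries. Inside the gene, chr2:31489175-31489783 measured 516 ± 10 bp in Chd4KO and 616 ± 39 bp in control libraries and was narrower without scaling too. With the 50000 strongest peaks it counted as lost.

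Arg1, the arginase gene of the last step of the cycle, had 972, 983 and 821 bp in Chd4KO libraries 1 to 3, against 1061, 1028 and 1136 bp in control libraries 1 to 3. The log2 difference was -0.17, -0.04 without scaling, where the groups overlapped, and 1.26 with the 50000 strongest peaks. It was -0.10 without Chd4KO library 3, -0.079 with 2 kb and -0.072 with 50 kb on each side. Cps1, which fixes ammonia at the entry to the cycle, overlapped between the groups at 1757, 1879 and 3038 bp in Chd4KO and 2552, 2748 and 2415 bp in control libraries. Chd4KO library 3 stood well above the other Chd4KO libraries there. A region inside Cps1 (chr1:67181047-67181538) counted as lost with the 50000 strongest peaks.

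Genes of amino acid breakdown were together covered more in the Chd4KO libraries. Summed over Tat, Hpd, Tdo2 and Hal, covered length was 9367, 8512 and 9481 bp in Chd4KO libraries 1 to 3, against 7677, 7823 and 7460 bp in control libraries 1 to 3, a ratio of 1.19, or 1.34 without scaling. Among the 6 role groups this was the highest ratio in both cases, and the groups of libraries did not overlap. Tdo2, the tryptophan dioxygenase gene, did not share in it, at 2665 ± 179 bp in Chd4KO and 2664 ± 118 bp in control libraries (SD, n = 3 each). Other role groups went the other way after scaling. The sums of apolipoproteins (ratio 0.89) and of gluconeogenesis and conjugation (ratio 0.85) were lower in every Chd4KO library than in any control library. Without scaling both overlapped, and plasma carriers and inhibitors were higher without overlap (ratio 1.11).

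Hpd, an enzyme gene of tyrosine breakdown, had 1499, 1383 and 1534 bp in Chd4KO libraries 1 to 3, against 750, 1070 and 980 bp in control libraries 1 to 3. All Chd4KO libraries were higher, by 0.53 ± 0.11 (SE) on the log2 scale. The regions of Hpd lay at and beyond the far end of the gene. The gained region (chr5:123162661-123163272, fold 4.52 to 7.96) stood 8535 bp from the span, within the neighbour Setd1b, and the region at the end of Hpd itself (chr5:123171452-123172322) was narrower, at 615 ± 17 bp in Chd4KO and 794 ± 66 bp in control libraries. The direction at Hpd turned under other settings, to -0.26 with 2 kb on each side, which leaves out the gained region, to -0.048 with 50 kb and to -0.14 with the 50000 strongest peaks.

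Tat, which encodes tyrosine aminotransferase, the enzyme one step before Hpd's, had 3759, 3342 and 3497 bp in Chd4KO libraries 1 to 3, against 3132, 2951 and 3044 bp in control libraries 1 to 3. The groups did not overlap, and the log2 difference was 0.20. It was 0.35 without scaling, 0.40 with the 50000 strongest peaks and 0.023 with 2 kb on each side. Its gained region (chr8:109980988-109981403) was centred at -9241 bp from the start and was weak, with a fold of 2.60 to 3.56. A region 16330 bp after the start (chr8:110006275-110007258), called in all 6 libraries, measured 835 ± 70 bp in Chd4KO and 498 ± 39 bp in control libraries. This was a ratio of 1.68, and the region was wider without scaling too. Hal, the histidine ammonia-lyase gene, had 1437, 1304 and 1609 bp in Chd4KO libraries 1 to 3, against 1104, 1035 and 901 bp in control libraries 1 to 3. All Chd4KO libraries were higher, by 0.41 ± 0.10 (SE) on the log2 scale. The difference was 0.81 with 2 kb and 0.077 with 50 kb on each side. The region at the far end of Hal (chr10:93515471-93516179) held peaks of 534, 533 and 709 bp in the Chd4KO libraries. Among the controls it held a peak of 213 bp in control library 2 alone. With the 50000 strongest peaks it counted as gained, and a region before the start (chr10:93486658-93487012) counted as lost.

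Among the genes of plasma carriers and inhibitors, Hpx was covered more and Hp and Itih1 were covered less in every Chd4KO library. Hpx, which encodes the haem binder hemopexin, had 1388, 1489 and 1721 bp in Chd4KO libraries 1 to 3, against 1280, 1255 and 996 bp in control libraries 1 to 3. The log2 difference was 0.31, but -0.015 with 50 kb on each side and 0.78 with the 50000 strongest peaks. The groups differed most at a region 2175 bp from the span (chr7:105588648-105589436), with peaks of 739, 789 and 752 bp in the Chd4KO libraries and of 244 bp in control library 1 alone. Hp, which encodes haptoglobin, the binder of free haemoglobin, had 1329, 1490 and 1253 bp in Chd4KO libraries 1 to 3, against 1767, 1504 and 1758 bp in control libraries 1 to 3. Chd4KO library 2 and control library 2 were close, and the log2 difference was -0.25. It was -0.11 without scaling, where the groups overlapped, -0.089 with 50 kb on each side and -0.12 with the 50000 strongest peaks. The region 5509 bp from Hp (chr8:109584681-109585389) measured 422 ± 84 bp in Chd4KO and 650 ± 87 bp in control libraries.

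Itih1, a heavy chain gene of the inter-alpha-trypsin inhibitors, had 1276, 1475 and 1057 bp in Chd4KO libraries 1 to 3, against 1635, 1773 and 2039 bp in control libraries 1 to 3. Every Chd4KO library was lower, with a log2 difference of -0.43 ± 0.12 (SE), and without scaling the groups overlapped at -0.29. With the 50000 strongest peaks it was -0.086. Its promoter window, printed above, lay under a region (chr14:30943005-30943532) with peaks of 282, 420 and 494 bp in the control libraries and of 291 bp in Chd4KO library 2 alone. The widest region of the territory lay at the start of the neighbour Nek4 and not at Itih1. Its neighbour Itih3 had a single peak, in Chd4KO library 2.

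Alb and Afp, the genes of albumin and its fetal counterpart, overlapped between the groups. Alb had 918, 715 and 901 bp in Chd4KO libraries 1 to 3, against 739, 791 and 733 bp in control libraries 1 to 3. Nearly all of it lay in a region inside the gene (chr5:90466875-90467826), called in all 6 libraries at 769 ± 115 bp in Chd4KO and 755 ± 32 bp in control libraries. The albumin gene thus had an open site inside the gene in both genotypes, while its promoter window had no peak. Afp ranged from 299 to 573 bp in Chd4KO and from 364 to 814 bp in control libraries. Tf overlapped at 2725 ± 273 bp in Chd4KO and 2522 ± 171 bp in control libraries, yet a region at one end of the gene (chr9:103230039-103230929) was wider in every Chd4KO library, at 795 ± 15 bp against 592 ± 41 bp in control libraries. Ambp, the gene of alpha-1-microglobulin and bikunin, overlapped at 1894 ± 73 bp in Chd4KO and 1701 ± 338 bp in control libraries.

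Of the apolipoprotein genes, whose products carry lipids in blood, Apoa1 and Apoc3 were covered slightly more in Chd4KO libraries through one shared peak. This region at the end of Apoa1 (chr9:46229661-46230509) is all that their territories held, with 769, 765 and 797 bp in Chd4KO libraries 1 to 3, against 641, 708 and 660 bp in control libraries 1 to 3. The groups did not overlap, with or without scaling, and the log2 difference was 0.15, against 0.27 without scaling or with the 50000 strongest peaks. With 50 kb on each side it was -0.052 at Apoa1 and -0.079 at Apoc3. Apob, the gene of the backbone protein of low-density lipoprotein, had 1250, 730 and 1712 bp in Chd4KO and 1654, 1794 and 1619 bp in control libraries, with Chd4KO library 3 among the control values. Apoa2 overlapped at 2097 ± 77 bp in Chd4KO and 2224 ± 200 bp in control libraries, and 4 of its 5 regions were called in all 6 libraries. These 4 lay within or near the neighbours Tomm40l and Fcer1g, those at Tomm40l also within 1 kb of an end of Apoa2. Apoh ranged from 196 to 269 bp in Chd4KO and from 256 to 322 bp in control libraries.

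Of the genes of gluconeogenesis and conjugation, G6pc and Ugt2b1 were covered less in Chd4KO libraries. G6pc, which encodes the enzyme that releases glucose from glucose 6-phosphate in the liver, held a single region, centred at -5018 bp from the start (chr11:101362067-101363330). It covered 954, 1072 and 1055 bp in Chd4KO libraries 1 to 3, against 1196, 1226 and 1290 bp in control libraries 1 to 3. The log2 difference was -0.21, and without scaling the groups overlapped at -0.08. It was -0.13 with 50 kb on each side and -0.084 with the 50000 strongest peaks. Ugt2b1, a glucuronosyltransferase gene, had 495, 511 and 520 bp in Chd4KO libraries 1 to 3, against 804, 953 and 786 bp in control libraries 1 to 3. The groups were well apart, with a log2 difference of -0.50 ± 0.11 (SE), and Chd4KO was lower without scaling too. With the 50000 strongest peaks it was -0.88. Its one region, however, lay at the start of the related gene Ugt2b34 (chr5:86906353-86907601). Pck1, the gene of the enzyme that starts gluconeogenesis from oxaloacetate, overlapped at 1432 ± 207 bp in Chd4KO and 1422 ± 117 bp in control libraries.

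Many peaks in these territories lay at other genes. Of the 116 regions, 22 lay within 1 kb of an end of one of the hepatocyte genes and 17 within 1 kb of an end of another gene. Only 4 lay over a promoter window of a hepatocyte gene, while 7 lay over that of a neighbour, among them Plrg1 beside Fgb, Srprb beside Tf, Afm beside Afp, Apbb1 beside Hpx and Txnl4b beside Hp. With 2 kb in place of 10 kb on each side, Apoc3, Fgb, Fgg, Hp, Hpx, Ugt2b1 and G6pc had no covered base left in any library. A change of covered length in a territory is therefore not always one at the gene itself.

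Where hepatocyte genes had regions called in all 6 libraries, these were more often narrower than wider in the Chd4KO libraries after scaling. Of the 60 regions, 21 were narrower in every Chd4KO library than in any control library (35.0%, beside 39.6% of all 75312 such regions), 4 were wider (6.67%, beside 7.61%), and in 35 the groups overlapped. The wider regions stood at Tat, Tf, Apoa1 with Apoc3, and Apoa2. That of Apoa2 lay 3703 bp outside its span, within the neighbour Fcer1g. The lowest ratios of Chd4KO to control width were 0.54 at Ugt2b1 and Plg, 0.57 at Otc and 0.65 at Hp. The scaling set this balance, since without it 10 were narrower and 11 wider (14.0% and 18.8% of all such regions). The regions named at Ugt2b1, Plg and Otc were narrower without scaling too, and that at Hp overlapped.

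**Figure D4:**
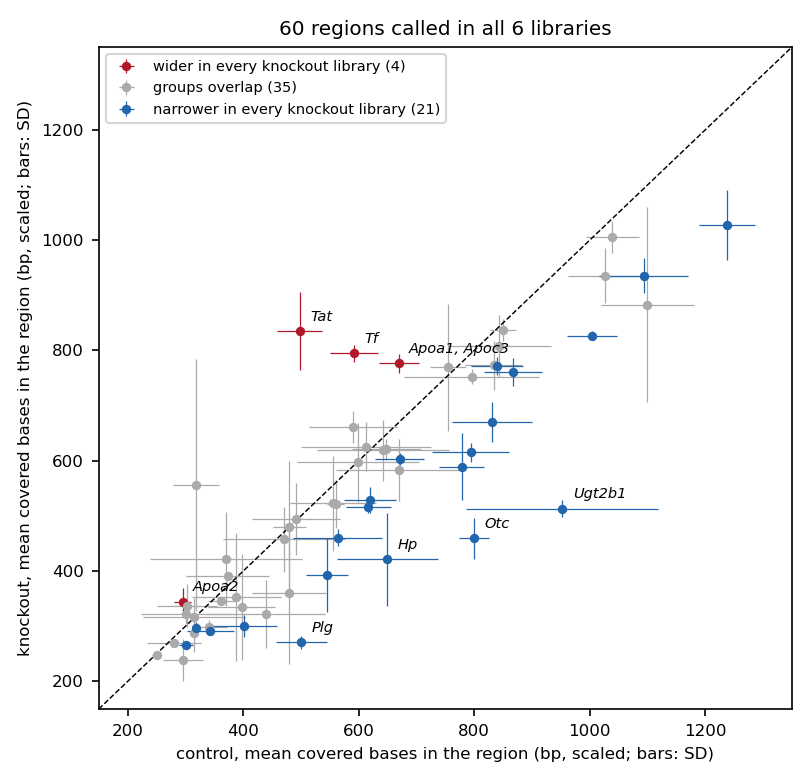
Mean scaled width of the 60 regions called in all 6 libraries, in Chd4KO (y axis, bp) against control libraries (x axis, bp), with bars for the SD of 3 libraries and a dashed line of equal width. The 4 red points above the line are wider and the 21 blue points below it narrower in every Chd4KO library.

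The genes of liver transcription factors, which act upstream of these genes, included several that were covered more in Chd4KO libraries. Of 18 such genes, all past the filter, 4 rose and 0 fell in the limma fit, beside 7.56% and 14.5% of all genes, and the median log2 difference was 0.03. Nr1i2, which encodes the xenobiotic receptor PXR, had 2714 ± 279 bp in Chd4KO and 1638 ± 251 bp in control libraries (log2 difference 0.64 ± 0.11 SE, limma adjusted p = 0.0089). Nr0b2, which encodes the bile acid regulator SHP, had 1884 ± 104 bp in Chd4KO and 1168 ± 134 bp in control libraries (0.58 ± 0.09, limma adjusted p = 0.0064). The other two were Hnf4a, at 0.56 ± 0.08 (limma adjusted p = 0.0046), and Onecut2, at 0.35 ± 0.08 (limma adjusted p = 0.020). Without scaling 6 of the 18 rose and 0 fell, and with 1 library left out 3 to 4 rose. With 50 kb on each side 3 rose and 2 fell, and with the replicate number as a block 4 rose and 1 fell. With the 50000 strongest peaks 2 rose and 0 fell. Nr1i2 had -0.31 with the 50000 strongest peaks and Nr0b2 -0.16 with 50 kb on each side. Hnf4a did not pass with 50 kb, Nr0b2 with the 50000 strongest peaks, and Onecut2 without Chd4KO library 1 or 2. Of the 18 genes, 12 had a gained region, beside 33.0% of all genes, and 2 had a lost one. Their covered length summed to 71174 to 76107 bp per library, where the median over all genes was 2094 bp per gene. The share of all genes was not matched for covered length. Several of these factors are also part of the normal β-cell.

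A further set of 59 hepatocyte genes outside the 32 also held calls in both directions. Of 48 past the filter, 8 rose (16.7%, beside 7.56% of all genes) and 2 fell (4.17%, beside 14.5%), and the median log2 difference was 0.07, against -0.09 over all genes. Agxt, a peroxisomal aminotransferase gene of glyoxylate removal, had 1739, 1786 and 1717 bp in Chd4KO libraries 1 to 3, against 709, 673 and 532 bp in control libraries 1 to 3 (1.13 ± 0.10, limma adjusted p = 0.0013). The kininogen gene Kng1 had 1436 ± 224 bp in Chd4KO and 768 ± 150 bp in control libraries (0.70 ± 0.14, limma adjusted p = 0.014). Bhmt, of homocysteine metabolism, and the fibrinogen-like gene Fgl1 fell, with -0.52 ± 0.16 (limma adjusted p = 0.050) and -0.43 ± 0.08 (limma adjusted p = 0.012), and Bhmt passed under 5 of 12 alternatives, without scaling not among them. Agxt passed under all 12, Kng1 under 12 of 13 (not with the 50000 strongest peaks) and Fgl1 under 12 of 13 (not with 2 kb). Without scaling 13 rose and 1 fell, beside 14.6% and 2.88% of all genes. With 50 kb on each side 7 rose and 8 fell of 58 past the filter, and with the 50000 strongest peaks 4 rose and 3 fell of 44. In the fits with 1 library left out, 3 rose without Chd4KO library 1, 4 without Chd4KO library 2 and 5 without control library 3. The count of lower genes in these fits was 4 without control library 2 and otherwise 1 to 2. A gained region stood at 20 of the 59 genes (33.9%, beside 33.0% of all genes) and a lost one at 6 (10.2%, beside 13.1%), shares near those of all genes. Both lists were put together with earlier results of these libraries known, and 2 of their genes, Ttr and Rbp4, are islet markers too.

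Markers of β-cells and of other cells differed between the groups as well. Covered length summed over the 10 β-cell genes was 38253 to 39329 bp in Chd4KO and 42801 to 48203 bp in control libraries. Of these genes, 5 were lower in every Chd4KO library, and 0 rose and 2 fell in the limma fit, beside 7.56% and 14.5% of all genes. Those were the insulin gene Ins1, with 2971, 2598 and 2735 bp in Chd4KO libraries 1 to 3, against 4441, 4151 and 4651 bp in control libraries 1 to 3 (-0.62, limma adjusted p = 0.0025), and the transcription factor gene Mafa (-0.46, limma adjusted p = 0.010). Ins1 passed under all 13 alternatives, and Mafa under 11, not without scaling or with the 50000 strongest peaks. Without scaling the β-cell sums overlapped, at 39856 to 42669 bp in Chd4KO and 40663 to 43872 bp in control libraries.

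Of 8 acinar genes, 5 passed the filter and 2 rose, Ctrb1 and Cela2a, beside 7.56% of all genes. Ctrb1 did not pass with 50 kb on each side, nor Cela2a in 4 of the 6 fits with 1 library left out (Chd4KO library 1 or 2, control library 1 or 3). Summed over the list, covered length was 6314 to 8074 bp in Chd4KO and 5188 to 5488 bp in control libraries. Sums over 8 endothelial genes were 14424 to 15534 bp in Chd4KO and 12460 to 12891 bp in control libraries, and both lists were higher in Chd4KO without scaling too. Of the endothelial genes 2 were called higher and 2 lower, beside 7.56% and 14.5% of all genes. Erg passed under all 13 alternatives and Eng under 10 of 11 (not with 50 kb), both higher, while the lower calls of Emcn and Sox17 held under 4 and 1 of 12 alternatives.

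After scaling, sums were lower in Chd4KO over 8 macrophage and leukocyte genes (13183 to 14564 bp in Chd4KO, 15843 to 16001 bp in control), 6 α-cell genes (11201 to 11754 bp in Chd4KO, 12304 to 13722 bp in control) and 3 δ-cell genes (6071 to 6199 bp in Chd4KO, 6546 to 7616 bp in control). Without scaling the groups overlapped in all 3 lists. The macrophage sums were then 13616 to 15415 bp in Chd4KO and 14504 to 15864 bp in control libraries, and 0 of its genes were called, against 2 lower with scaling. Most of these markers had covered bases in all libraries, namely 6 of the acinar, 7 of the endothelial and 7 of the macrophage genes. The part of β-cell state or of other cells in the values of the hepatocyte genes was not tested.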

How the data were processed

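The deposited files are narrow peak lists, 1 per library, on mm10 per the submitters' processing notes. Peak names in the deposited files point to MACS2 on shifted cutting sites; the sources used here name no aligner, filter or version. For each peak the authors give a score, a fold enrichment as a ratio, −log10 p and −log10 q values and the offset of the summit, used here within each list alone. Replicates were not pooled.

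Covered length was counted over RefSeq gene spans (GRCm38.p6) plus 10 kb, scaled to the mean library total, and log2(covered length + 300 bp) was tested with limma 3.58.1 in R 4.3.3 (intensity trend, Benjamini-Hochberg adjusted p under 0.05) over 17707 genes with a mean of at least 300 bp. Sums, regions and motifs were computed with Python 3.11.15. The scale understates changes at genes with few peaks. The script was tested on simulated data. P-values measure the spread between these samples only.

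The 32 genes and the 8 marker and liver lists were chosen with earlier results of these data known. Values in every library are given for genes with a gained region or without overlap between the groups, single regions for gained regions at gene ends and the widest of several, and up to 4 called genes per liver list by size. Other single regions, among them the gained regions at Hpd and Tat, were chosen after their values were seen. Alternatives left out the scaling, the filter or 1 library in turn, and changed the added bases, the flank, the peaks used, the overlap and the replicate block.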

Additional observations from a re-analysis of the deposited data

How the results depend on the processing

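Of 176 differences recomputed for 16 hepatocyte genes, 160 kept their direction, 9 reversed, and 7 were 0 with 2 kb on each side, where no covered base was left. Those that kept it moved by over 1.5 times for 9 of 16 genes without scaling, 5 of 8 with 2 kb, 7 of 12 with 50 kb and 11 of 12 with the 50000 strongest peaks, and for 1 of 96 values with 1 library left out. With 50 kb on each side Apoa1 had -0.052, Apoc3 -0.079, Hpx -0.015 and Hpd -0.048, with 2 kb Hpd had -0.26, and with the 50000 strongest peaks Otc had -0.61, Hpd -0.14, Arg1 1.26 and Fgb 0.20. The causes were not tested. Apoa1 and Apoc3 both count among the 16 genes, though with 10 kb on each side they held only a single shared region. Without scaling, 2585 of all genes were called higher and 510 lower (83.5% higher among calls, against 34.2% with scaling), 0 hepatocyte genes were called lower and 2 lay below the controls without overlap. With the 50000 strongest peaks, 1539 of all genes were called lower, 4 regions were lost and 5 hepatocyte genes lay below the controls. With 50 kb, 2 hepatocyte genes were called higher and 0 lower, 4 lay above the controls, 29 regions were gained and 3 lost. With 2 kb, 2 were called higher and 0 lower, 4 lay above and 1 below the controls, and 4 regions were gained. With peaks over at least 50% of a region, 1 was lost.

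With 1 library left out in turn, 698 to 1173 of all genes were called higher and 839 to 2223 lower, 1 to 4 hepatocyte genes higher and 0 to 3 lower, 7 to 10 regions were gained and 0 to 3 lost. The counts over all genes moved most without control library 3 (698 and 839) and without Chd4KO library 1 (701 and 1146). Without Chd4KO library 2 they were 858 and 1555, and without control library 1 the lower count was 1160. Lost regions numbered 3 without control library 1 and 2 without Chd4KO library 2. With the replicate block, 1163 of all genes were called higher and 1934 lower, and 4 and 2 hepatocyte genes. The labels do not say that equal numbers mark a pair, and deviations of same-numbered libraries correlated at 0.13, 0.09 and -0.03. Peak lists without read counts limit all widths and calls to what was called at an unknown depth.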
